A study of Homo sapiens with 18 samples.

Results

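The vitamin D metabolism genes CYP24A1, CYP27B1, CYP2R1 and GC were taken by symbol from the count table, 4 of its 35238 gene rows. They were chosen by the measured rise of CYP24A1 with the small molecule 6N in these same libraries, and the other 3 were added for their shared role. Every value of 6N against DMSO for these 4 genes, and every value of CYP24A1 that involves the 6N or the DMSO libraries, is therefore a description with no test. RNA was sequenced from HepG2 cells, a human liver tumour line that keeps many hepatocyte traits, in 6 groups of 3 libraries. Cells received the small molecule 6N, 10CA or 6N-10CA at 10 µM, set against the vehicle DMSO at 0.1%, or the phospholipid DLPC at 100 µM, set against the vehicle ethanol at 0.1%. All groups were treated in medium with charcoal-stripped serum, a procedure that removes lipophilic hormones. The compounds belong to work on LRH-1, a nuclear receptor that binds phospholipids, and the question here was how they affect the transcripts of this line. The labels do not tie a vehicle to a compound. The pairing used comes from knowledge of the study.

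Vitamin D is carried in blood by the vitamin D binding protein, the product of GC, which hepatocytes secrete. CYP2R1, a microsomal cytochrome P450 best known from liver, hydroxylates the side chain to make the circulating form. CYP27B1, a mitochondrial P450 best known from kidney, makes the active hormone, which binds the vitamin D receptor VDR as a partner of the RXR receptors. CYP24A1, also mitochondrial, hydroxylates the side chain again and starts the breakdown of the hormone and its precursor, and its gene is a classic target of VDR.

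The 3 hydroxylases share the P450 signature around the cysteine that holds the haem iron. Its 30 coding bases are shown because they mark the family the counts belong to and show how far the members differ there. They were read 5′ to 3′ from GENCODE release 29 transcripts on GRCh38, with the cysteine codon in capitals.
CYP24A1: tttggcgttggaaaaagaatgTGCattggt
CYP27B1: tttggctttggcaagcgcagcTGTatgggg
CYP2R1: ttttccctaggaagaagacatTGTcttgga
The CYP24A1 stretch lies at chr20:54157430-54157459, minus strand, in exon 10 of 12 of its longest coding transcript, and holds residue 462 of 514. The CYP27B1 stretch lies at chr12:57763653-57763682, minus strand, in exon 8 of 9, and holds residue 455 of 508. The CYP2R1 stretch starts in exon 4 of 5 and crosses a splice junction within chr11:14878278-14879123, minus strand, and holds residue 448 of 501. Over these bases CYP24A1 matched CYP27B1 at 20 of 30 positions and CYP2R1 at 19, and CYP27B1 matched CYP2R1 at 15.

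The libraries held between 28135967 and 34992442 counts. Levels are given as CPM, a gene's counts scaled to a common library total, and the floor of 3 counts stood at 0.0857 to 0.107 CPM depending on the library. All 10 hepatocyte and HepG2 markers were above 1 CPM, with summed levels of 56100 to 73500 CPM, and albumin (ALB) averaged 9640 CPM. Kidney tubule markers summed to 0.116 to 1.58 CPM, with AQP2 at 0 in every library. A list of 9 stromal, endothelial and blood markers summed to 150 to 165 CPM with DLPC, against 138 to 141 CPM with ethanol, and to between 122 and 141 CPM in the other groups. In that list 5 of the 9 averaged above 1 CPM, with CD68 at 91.2, CDH5 at 18.8, PECAM1 at 13.5, PDGFRB at 8.21 and VWF at 4.1 CPM, while PTPRC averaged 0.197 CPM and HBB was at 0. Its part in the differences between DLPC and ethanol below was not tested.

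All 4 genes were low in these cells. Mean levels over the 18 libraries were 1.72 CPM for CYP27B1, 1.20 CPM for CYP24A1, 0.368 CPM for CYP2R1 and 0.118 CPM for GC. Of all tested genes, 18.8% had a lower mean than CYP27B1, 16.1% a lower mean than CYP24A1 and 6.04% a lower mean than CYP2R1. Counts per library ran from 38 to 74 for CYP27B1, 15 to 80 for CYP24A1, 5 to 20 for CYP2R1 and 0 to 11 for GC. The 3 hydroxylases passed the filter on low counts and GC did not. Counts of CYP27B1 can include reads from METTL1, a gene that overlaps it, and their share was not tested.

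On a scale that corrects for length, CPM per kilobase of exon, the order was CYP27B1 at 0.50, CYP24A1 at 0.302, CYP2R1 at 0.0815 and GC at 0.0496. The ranges over libraries of neighbours in that order overlapped, at 0.36 to 0.689 for CYP27B1, 0.123 to 0.657 for CYP24A1, 0.0399 to 0.155 for CYP2R1 and 0 to 0.13 for GC. Other listed vitamin D hydroxylases lay above these 4 genes or between them. CYP2J2 at 1.41, CYP3A5 at 1.15 and CYP11A1 at 0.705 were all above CYP27B1. CYP27A1, a mitochondrial P450 of bile acid synthesis that can also hydroxylate the vitamin D side chain, stood at 176 CPM per kilobase, and CYP3A4, which inactivates vitamin D metabolites, at 0.0996. The electron donors of these enzymes were present, with POR, which serves microsomal P450s, at 102, and FDXR and FDX1, which serve mitochondrial P450s, at 47.8 and 9.45. The receptor VDR stood at 0.199, between CYP24A1 and CYP2R1, and its partner RXRA at 8.48. CUBN and LRP2, the endocytic receptors that take up the carrier in kidney, stood at 0.367 and 0.0224.

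GC lies at 71741693 to 71804041 on chromosome 4, in the albumin gene family that also holds ALB, AFP and AFM. AFM was added to this comparison after its values were seen. ALB stood at 2855 CPM per kilobase and AFP, the fetal family member, at 3713, whereas AFM stood at 0.312 and GC at 0.0496. GC had the lowest level of these 4 family members.

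**Figure D1:**
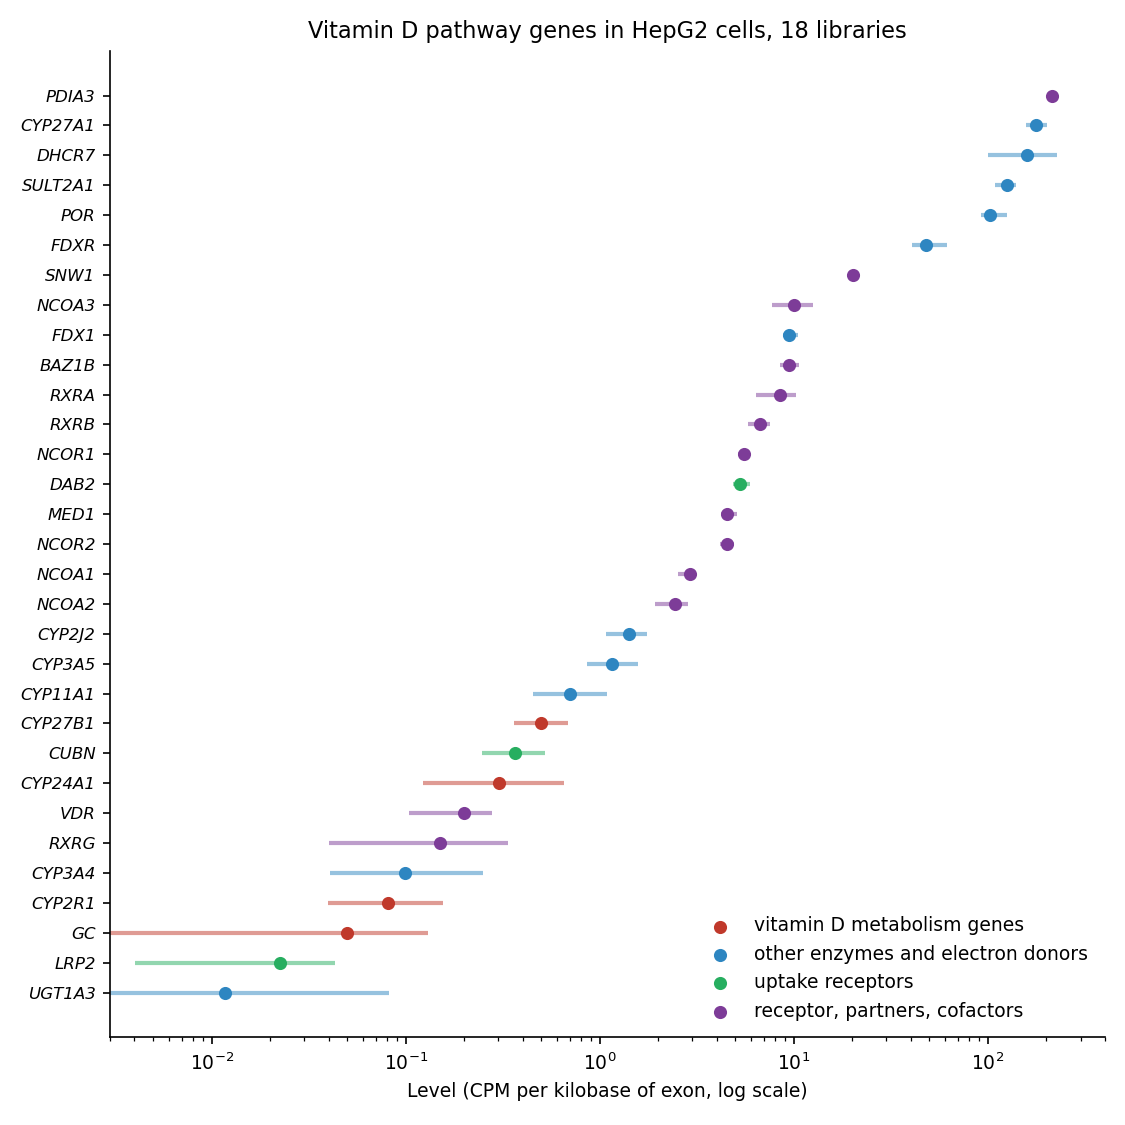
Levels of the 4 vitamin D metabolism genes and of other enzymes, uptake receptors, and VDR with partners and cofactors, where the mean reached 0.01 CPM per kilobase, on a log axis. Points are means over 18 libraries and lines run from the lowest to the highest library, starting at the left edge where a library is at 0 (GC, UGT1A3); the 4 genes lie between 0.0496 (GC) and 0.50 (CYP27B1).

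CYP24A1 (chromosome 20, 54153449 to 54173973, minus strand) had the widest span of group means of the 4 genes on the CPM scale. In the 6N libraries it had 80, 52 and 67 counts, or 2.61, 1.74 and 2.16 CPM, against 23, 15 and 15 counts, or 0.666, 0.492 and 0.49 CPM, in the DMSO libraries. The lowest 6N library lay above the highest DMSO library, a pattern seen upward in 6.26% of all tested genes, and above each of the other 12 libraries except DLPC replicate 3. The fitted log2 fold change was 1.97 (SE 0.35), or 3.92-fold. This is the value that led to the choice of the genes, and it stands here with no test, beside the 1.14% of 14797 tested genes called in that comparison. Leaving out any 1 of the 6 libraries gave 1.82 to 2.14. Against ethanol in place of DMSO the log2 fold change was 1.14, and against both vehicles averaged 1.56.

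The other groups lay between 6N and DMSO. With 10CA there were 40, 33 and 23 counts of CYP24A1, or 1.20, 1.01 and 0.756 CPM, all above the DMSO libraries. The log2 fold change of 10CA against DMSO was 0.84 (SE 0.37). Libraries did not overlap upward for 6.55% of all tested genes in that comparison and downward for 6.3%. With 6N-10CA the counts were 28, 53 and 27, or 0.978, 1.5 and 0.926 CPM, again above all DMSO libraries. The log2 fold change of 6N-10CA against DMSO was 1.04 (SE 0.36). In that comparison 7.52% of tested genes did not overlap upward and 7.27% downward. Both rest on the DMSO libraries that took part in the choice of the gene, and have no test. Against ethanol the values were 0.01 for 10CA and 0.22 for 6N-10CA.

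With DLPC the counts of CYP24A1 were 36, 25 and 62, or 1.29, 0.864 and 1.93 CPM, against 44, 32 and 15 counts, or 1.41, 0.973 and 0.539 CPM, with ethanol. The groups overlapped, whereas 9.79% of all tested genes did not overlap upward and 9.39% downward, and the log2 fold change was 0.48 (SE 0.34, interval -0.22 to 1.19; adjusted p = 0.588, edgeR's quasi-likelihood test). It ranged from 0.13 to 0.84 as each of the 6 libraries was left out. Against DMSO the DLPC libraries gave 1.31. Ethanol against DMSO gave 0.83 (SE 0.37), as a description with no test, and the libraries of the vehicles overlapped. Of the 15 libraries outside the DMSO group, 14 lay above the highest DMSO library, the exception being ethanol replicate 3. The comparisons against DMSO share the same 3 DMSO libraries.

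Summed over 3 libraries CYP24A1 had 199 counts with 6N (exact Poisson 95% interval 172 to 229), 96 with 10CA (77.8 to 117), 108 with 6N-10CA (88.6 to 130) and 53 with DMSO (39.7 to 69.3). It had 123 with DLPC (102 to 147) and 91 with ethanol (73.3 to 112). These intervals cover counting error only, and do not allow for the choice of the gene. Within groups the libraries varied more than counting error gives, with a mean squared deviation of 3.28 times the Poisson expectation.

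**Figure D2:**
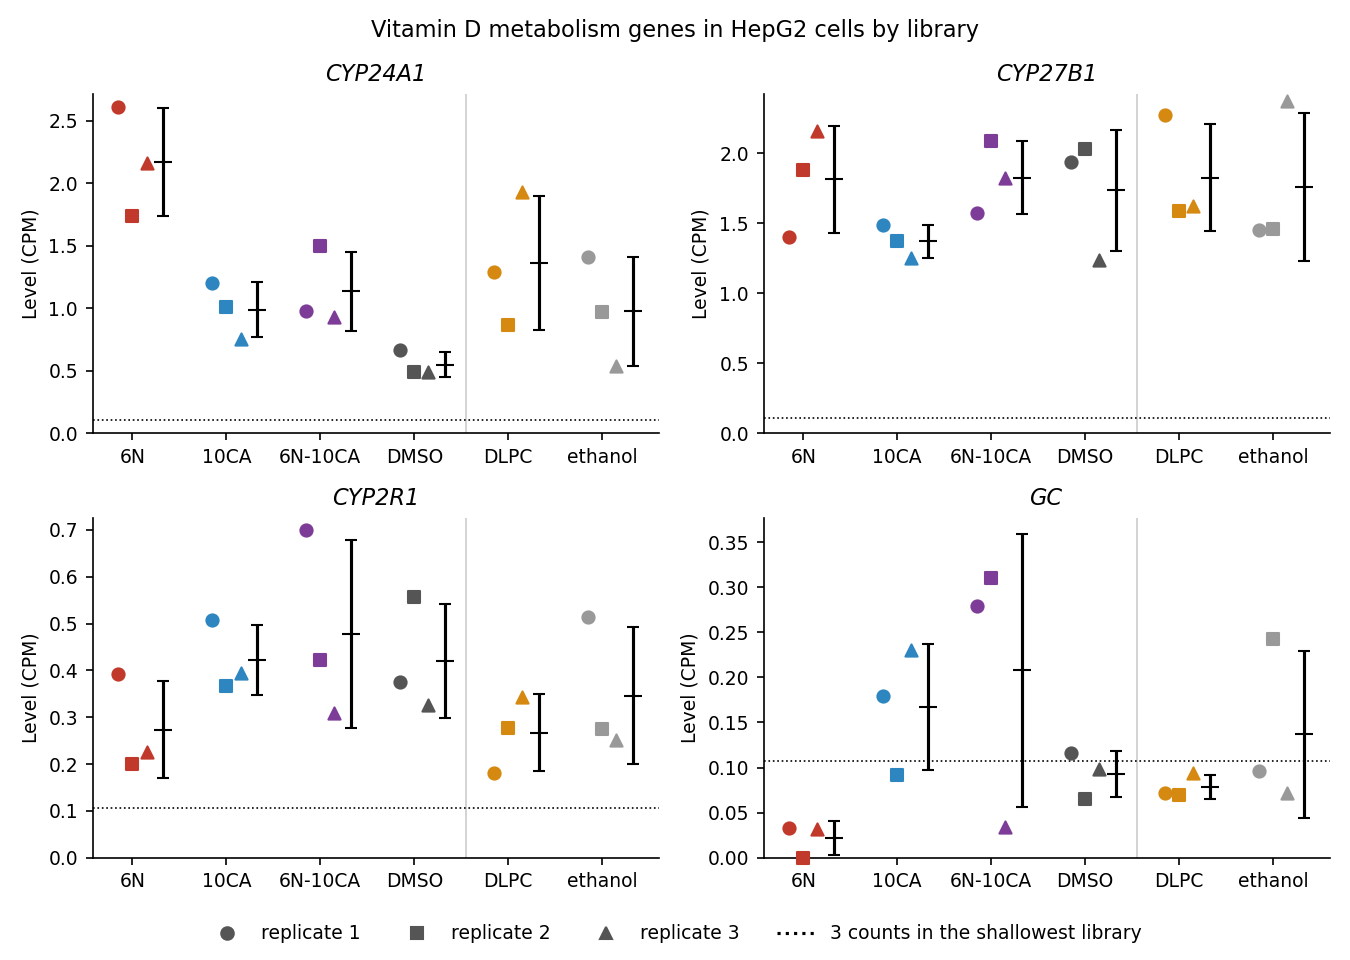
Levels in CPM of CYP24A1, CYP27B1, CYP2R1 and GC in each of the 18 libraries, with the mean and SD of 3 libraries beside each group and a dotted line at 3 counts in the shallowest library. The 6N libraries of CYP24A1 sit between 1.74 and 2.61 CPM, above the 0.49 to 0.666 CPM of DMSO, while CYP27B1 and CYP2R1 overlap between most groups and GC lies near the dotted line.

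CYP27B1 (chromosome 12, 57762334 to 57768986, minus strand) differed less between groups, relative to its level, than the other 3. It averaged 1.81 ± 0.38 CPM with 6N, 1.37 ± 0.12 with 10CA and 1.83 ± 0.26 with 6N-10CA, against 1.74 ± 0.43 CPM with DMSO (SD, n = 3 each). With DLPC it averaged 1.83 ± 0.38 CPM, against 1.76 ± 0.53 CPM with ethanol. The per-library levels were 1.40, 1.88 and 2.16 CPM with 6N, 1.49, 1.37 and 1.25 with 10CA, 1.57, 2.09 and 1.82 with 6N-10CA, and 1.94, 2.03 and 1.24 with DMSO. They were 2.27, 1.59 and 1.62 CPM with DLPC and 1.45, 1.46 and 2.37 with ethanol. Each treated group overlapped its vehicle.

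The log2 fold change of CYP27B1 was 0.06 for 6N (SE 0.24), -0.34 for 10CA (SE 0.25, interval -0.86 to 0.18; adjusted p = 0.812) and 0.07 for 6N-10CA (SE 0.24, interval -0.43 to 0.58; adjusted p = 0.961), each against DMSO in the edgeR fit. DLPC against ethanol gave 0.06 (interval -0.45 to 0.57; adjusted p = 0.958). Ethanol against DMSO gave 0.01 (interval -0.51 to 0.52; adjusted p = 1). Each interval covered 0. The upstream end of CYP27B1 overlaps METTL1, a tRNA methyltransferase gene on the same strand, over 516 bases, of which 107 are exonic in both. METTL1 averaged 28.7 CPM. Reads from the shared bases cannot be told apart, and the log2 fold change of METTL1 was between -0.13 and 0.03 in these 5 comparisons. Per kilobase of exon METTL1 stood at 11 CPM, against 0.50 for CYP27B1. How far METTL1 reads make up the counts of CYP27B1, and its small differences between groups, was not tested.

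CYP2R1 (chromosome 11, 14877440 to 14892252, minus strand) was nearer to the floor. Its counts were 12, 6 and 7 with 6N, 17, 12 and 12 with 10CA, 20, 15 and 9 with 6N-10CA, and 13, 17 and 10 with DMSO. They were 5, 8 and 11 with DLPC and 16, 9 and 7 with ethanol. The 6N and DLPC groups had the lowest means, 0.273 ± 0.10 and 0.267 ± 0.082 CPM, against 0.42 ± 0.12 CPM with DMSO and 0.346 ± 0.15 CPM with ethanol (SD, n = 3 each), and each overlapped its vehicle.

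The log2 fold change of CYP2R1 against DMSO was -0.61 for 6N (SE 0.42), 0.01 for 10CA (SE 0.39, interval -0.81 to 0.84; adjusted p = 0.996) and 0.18 for 6N-10CA (SE 0.39, interval -0.64 to 0.99; adjusted p = 0.938) in the edgeR fit. DLPC against ethanol gave -0.37 (SE 0.44, interval -1.28 to 0.55; adjusted p = 0.789). Ethanol against DMSO gave -0.27 (interval -1.12 to 0.58; adjusted p = 1). Each interval spanned both falls and rises, and was wider than those of CYP27B1. Libraries of a group varied about as much as counting error gives, at 1.3 times the Poisson expectation.

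GC was at or near the floor. It had 1, 0 and 1 counts with 6N, 6, 3 and 7 with 10CA, 8, 11 and 1 with 6N-10CA, and 4, 2 and 3 with DMSO. With DLPC there were 2, 2 and 3 counts and with ethanol 3, 8 and 2. Over 3 counts were seen in 6 of the 18 libraries, and replicates varied at 1.15 times the Poisson expectation. Summed counts were 2 with 6N (exact Poisson 95% interval 0.242 to 7.22), 16 with 10CA (9.15 to 26), 20 with 6N-10CA (12.2 to 30.9) and 9 with DMSO (4.12 to 17.1). They were 7 with DLPC (2.81 to 14.4) and 13 with ethanol (6.92 to 22.2).

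All 3 libraries of 6N had fewer GC counts than any DMSO library. Such a downward separation was shown by 7.31% of all tested genes, a set that GC, with its low counts, is not part of. The ratio of 6N to DMSO was 0.232, with a counting interval of 0.0244 to 1.12. Upward, the ratio to DMSO was 1.76 for 10CA (interval 0.732 to 4.51) and 2.28 for 6N-10CA (0.992 to 5.69). DLPC against ethanol gave a ratio of 0.557 (0.188 to 1.5). Ethanol against DMSO gave 1.5 (0.595 to 3.99). Exact two-sided permutation tests gave p = 0.30 for 10CA, 0.40 for 6N-10CA, 0.30 for DLPC and 0.70 for ethanol (0.525, 0.56, 0.525 and 0.70 in that order, adjusted over 7), where 3 libraries against 3 cannot go below 0.10. That limit lies above the threshold for a call, so these permutation tests could not call a change in GC at any depth. They therefore cannot decide whether GC changed. Each counting interval of a ratio to a vehicle covered both a fall and a rise. In such bulk libraries fewer cells with a transcript and less of it per cell cannot be told apart.

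The small molecules were compared with each other at their shared dose of 10 µM in 3 pairs. For CYP24A1 the log2 fold change was -0.92 for 6N-10CA against 6N (SE 0.32) and -1.13 for 10CA against 6N (SE 0.32), given as descriptions, and in both pairs the 6N libraries lay above the others. Such a downward separation was seen in 8.66% of tested genes in the first pair and 8.18% in the second. 6N-10CA and 10CA differed by 0.21 (SE 0.34, interval -0.50 to 0.92; adjusted p = 0.909, edgeR), with overlapping libraries.

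For CYP27B1 the 6N-10CA libraries lay above all 10CA libraries, with a log2 fold change of 0.42 (SE 0.25, interval -0.10 to 0.94; adjusted p = 0.688, edgeR). Libraries did not overlap upward for 6.5% of tested genes in that pair. The difference was 0.01 for 6N-10CA against 6N (interval -0.49 to 0.52; adjusted p = 0.987) and -0.40 for 10CA against 6N (interval -0.92 to 0.12; adjusted p = 0.507). For CYP2R1 it was 0.79 for 6N-10CA against 6N (SE 0.42, interval -0.08 to 1.66; adjusted p = 0.399), 0.63 for 10CA against 6N (interval -0.25 to 1.5; adjusted p = 0.554) and 0.16 for 6N-10CA against 10CA (interval -0.65 to 0.98; adjusted p = 0.946).

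For GC both other compounds gave more counts than 6N, and neither difference passed the threshold after adjustment. The ratio to 6N was 9.81 for 6N-10CA (20 counts against 2, counting interval 2.38 to 86.6) and 7.57 for 10CA (16 counts against 2, interval 1.78 to 67.8). In the first pair the lowest 6N-10CA library, with 1 count, lay only just above the highest 6N library on the CPM scale. Libraries did not overlap upward for 9.03% of tested genes, which do not include GC, in the first pair and 8.54% in the second. Both pairs had an exact permutation p of 0.10, the smallest that 3 against 3 can give (0.35 adjusted over 7). With no filter on low counts edgeR gave GC unadjusted p-values of 0.00243 and 0.00809 for these pairs, and adjusted p-values of 0.108 and 0.216. 6N-10CA and 10CA themselves had a GC ratio of 1.3 (interval 0.638 to 2.68; exact permutation p = 0.70).

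The hydroxylases had 16 tests that used neither 6N against DMSO nor, for CYP24A1, the 6N or DMSO libraries. edgeR (quasi-likelihood, Benjamini-Hochberg adjusted) called 0 of them, and 0 had an unadjusted p under 0.05. The fit with the replicate number as a block also called 0. DESeq2 gave an adjusted p for 5 of the 16 and called 0 of those. After adjustment, the share of all tested genes called against DMSO was 0% with 10CA, 0.264% with 6N-10CA and 0% with ethanol. DLPC against ethanol had 1.04%. Between small molecules it was 1.64% for 6N-10CA against 6N and 1.71% for 10CA against 6N. For 6N-10CA against 10CA it was 0.23%, and 8.4% of genes had an unadjusted p under 0.05 there.

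**Figure D3:**
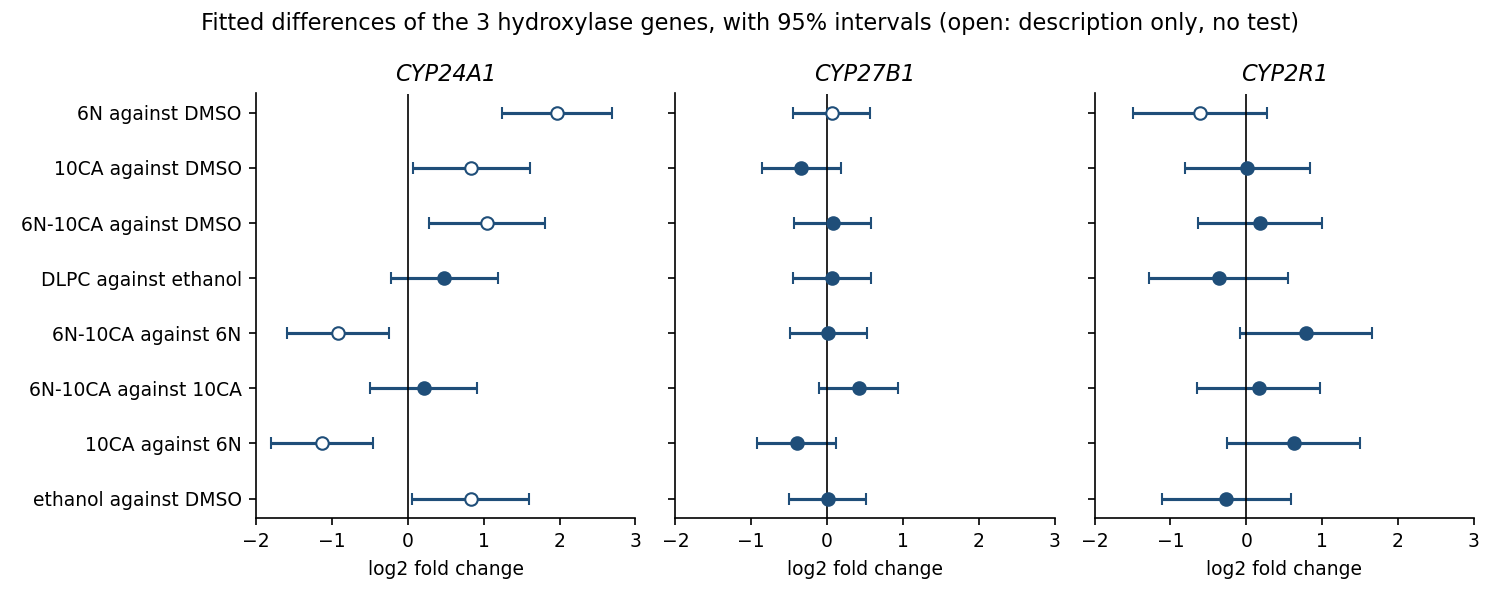
Log2 fold changes of CYP24A1, CYP27B1 and CYP2R1 in 8 comparisons, with 95% intervals from the edgeR fit. Open points are descriptions with no test, and their intervals do not allow for the choice of the genes. CYP24A1 stands at 1.97 for 6N and between 0.84 and 1.04 for 10CA and 6N-10CA against DMSO, near the 0.83 of ethanol against DMSO, while every interval of CYP27B1 and CYP2R1 includes 0.

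The rest of the pathway was followed in 62 listed genes, of which 46 were tested. They were enzymes and electron donors, uptake receptors, VDR with its partners and cofactors, hormonal controls, and VDR targets. The lists were chosen with earlier results of these data known. Below, the share of listed genes called stands beside that of all tested genes, which were not matched to the list in level. DHCR7 and SPP1, each called in more than 1 comparison, averaged 662 and 867 CPM over the 18 libraries. Whether the shares differ was not tested. VDR itself averaged 1.21 ± 0.38 CPM with 6N, 1.03 ± 0.39 with 10CA and 0.876 ± 0.14 with 6N-10CA, against 0.992 ± 0.036 CPM with DMSO. With DLPC it averaged 1.28 ± 0.12 CPM, against 1.41 ± 0.072 CPM with ethanol (SD, n = 3 each). Its log2 fold change was 0.28, 0.06, -0.18 and -0.15 in these 4 comparisons, none of them called (adjusted p of 0.859 to 0.977, edgeR). Ethanol libraries lay above all DMSO libraries for VDR, at 0.51 (SE 0.27; adjusted p = 1), where 4.06% of tested genes did not overlap upward. Of 26 listed VDR targets 16 were tested, among them SPP1 at 867, NINJ1 at 321, LRP5 at 283, CDKN1A at 135 and ATP2B1 at 39.1 CPM. The other 10 were too low, among them the epithelial calcium channel gene TRPV5, at 0 in all 18 libraries. Its relative TRPV6 and the calcium-binding protein gene S100G had 5 counts each in all, and CAMP, an antimicrobial peptide gene, had 1.

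With 6N, 1 listed gene rose and 1 fell against DMSO, 4.35% of the 46 tested, beside 1.14% of all tested genes. POR, the electron donor of microsomal P450s, rose to 707 ± 54 CPM with 6N, against 568 ± 8.2 CPM with DMSO (log2 fold change 0.31, SE 0.05; adjusted p = 0.00275, edgeR). DHCR7, which uses up the skin's vitamin D precursor to make cholesterol, fell to 459 ± 49 CPM, against 643 ± 17 CPM with DMSO (-0.49, SE 0.07; adjusted p = 0.000414). The median log2 fold change of the list was -0.01, and 0.00 over all tested genes. CYP3A4 had 48 counts with 6N, 23 with 10CA and 44 with 6N-10CA, against 17 with DMSO. The log2 fold changes were 1.54, 0.41 and 1.38 (adjusted p of 0.150, 0.892 and 0.278), and reads of CYP3A4 may be shared with its close relatives. CUBN stood at -0.50 and LRP2 at 0.92 with 6N, and FDX1 at 0.12 and FDXR at 0.22, none of them called in the main fit. With the replicate block 5 listed genes rose and 4 fell with 6N, or 19.6%, beside 3.72% of all genes. FDXR, CYP27A1, CYP3A5 and SULT2A1 then rose beside POR, and SPP1, CLDN2 and CDKN1A fell beside DHCR7. The replicate numbers were not taken to pair the 6N and DMSO libraries.

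With 10CA against DMSO none of the 46 passed (0 of 46, also with the replicate block and with DESeq2), and 4 had an unadjusted p under 0.05, beside 6.98% of all tested genes. With 6N-10CA 0 rose and 2 fell, or 4.35%, beside 0.264% of all genes. SPP1, which encodes the secreted matrix protein osteopontin and is a VDR target in bone, fell to 680 ± 23 CPM, against 978 ± 76 CPM with DMSO (-0.52, SE 0.06; adjusted p = 7.12e-05, edgeR). CLDN2, a tight junction gene that VDR controls in gut, fell to 3.25 ± 0.47 CPM, against 5.38 ± 0.47 CPM with DMSO (-0.72, SE 0.14; adjusted p = 0.0353). The call of CLDN2 was lost without any 1 of the 6 libraries, with adjusted p-values of 0.0537 to 0.143, and against ethanol. It was also lost with only the 2 groups in the fit (0.185). With the replicate block 3 listed genes rose and 3 fell in this comparison, or 13%, beside 3.8% of all genes. At an unadjusted p under 0.05 there were 11 of the 46, beside 1466 of 14797 tested genes (9.91%). The same rule gave 15 of the 46 for 6N against DMSO (9.35% of all genes) and 12 for DLPC against ethanol (13%). Between small molecules it gave 8 for 6N-10CA against 6N (14.4%), 10 for 6N-10CA against 10CA (8.4%) and 16 for 10CA against 6N (13.9%).

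With DLPC against ethanol 2 listed genes rose and 1 fell, or 6.52%, beside 1.04% of all genes, and with the replicate block 5 rose and 2 fell, or 15.2%, beside 6.74% of all genes. RXRA, the partner receptor of VDR, rose to 111 ± 1.7 CPM, against 77.4 ± 9.3 CPM with ethanol (0.53, SE 0.09; adjusted p = 0.00363, edgeR). Against DMSO, where RXRA averaged 96.4 ± 8.2 CPM, the log2 fold change with DLPC was 0.21 and was not called (adjusted p = 0.215). DHCR7 rose to 885 ± 55 CPM, against 658 ± 49 CPM with ethanol (0.43, SE 0.07; adjusted p = 0.00353). SPP1 fell to 814 ± 16 CPM, against 1010 ± 7.6 CPM with ethanol (-0.32, SE 0.06; adjusted p = 0.00712). Between the vehicles none of the 46 passed (0 of 46, also with the block and with DESeq2), and 5 had an unadjusted p under 0.05, beside 3.24% of all tested genes. LRP2 stood at 53 counts with ethanol, against 17 with DMSO (1.67, SE 0.43; adjusted p = 0.562).

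Between the small molecules, DHCR7 was higher with 6N-10CA than with 6N (0.69, SE 0.07; adjusted p = 3.33e-06, edgeR), whereas SPP1 was lower (-0.30; adjusted p = 0.0067, but 0.0514 with only these 2 groups in the fit). FGF23, the gene of a bone hormone that in kidney lowers CYP27B1 and raises CYP24A1, was also lower with 6N-10CA, at 6.45 ± 1.2 CPM, against 11.0 ± 1.3 CPM with 6N (-0.77, SE 0.18; adjusted p = 0.0303). Its call was lost without 6N replicate 1 or 2 or 6N-10CA replicate 1 or 3, with adjusted p-values of 0.0971 to 0.127. KL, the gene of the FGF23 co-receptor, had 15 counts in all 18 libraries. These 3 calls were 6.52% of the tested list, beside 1.64% of all genes, and with the block 1 rose and 6 fell, or 15.2%, beside 8.32% of all genes.

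6N-10CA against 10CA gave 1 higher and 1 lower listed gene, or 4.35% beside 0.23% of all genes (0.196% higher and 0.0338% lower), and 4 higher and 2 lower with the block, or 13% beside 2.36% of all genes. They were CYP3A5, a relative of CYP3A4, at 0.57 (SE 0.12; adjusted p = 0.0455), and SPP1 at -0.38 (adjusted p = 0.00394). With only these 2 groups in the fit both calls were lost, with adjusted p-values of 0.139 for CYP3A5 and 0.0536 for SPP1. The call of CYP3A5 was lost without any 1 of the 6 libraries, with adjusted p-values of 0.0593 to 0.227. 10CA against 6N gave 1 higher and 4 lower, or 10.9% beside 1.71% of all genes (1.05% higher and 0.662% lower), and 2 higher and 9 lower with the block, or 23.9% beside 7.66% of all genes. DHCR7 was higher at 0.36 (SE 0.07; adjusted p = 0.00658).

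In that last pair CYP27A1 was lower at -0.20 (adjusted p = 0.0386), CYP3A5 at -0.54 (0.0186), POR at -0.27 (0.00897) and SULT2A1, a steroid sulfotransferase, at -0.28 (0.00603), by edgeR with adjusted p-values in brackets. SULT2A1 kept its call without any 1 of the 6 libraries. CYP27A1 lost it without any library other than 6N replicate 2 (adjusted p of 0.0559 to 0.179). DHCR7 lost it without 6N replicate 2 (0.0598), POR without 6N replicate 1 (0.0561) or 10CA replicate 2 (0.0541), and CYP3A5 without 6N replicate 2 (0.111) or 10CA replicate 2 (0.061) or 3 (0.0911). With only these 2 groups in the fit CYP27A1 (0.161), CYP3A5 (0.0696) and POR (0.0773) were not called.

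**Figure D4:**
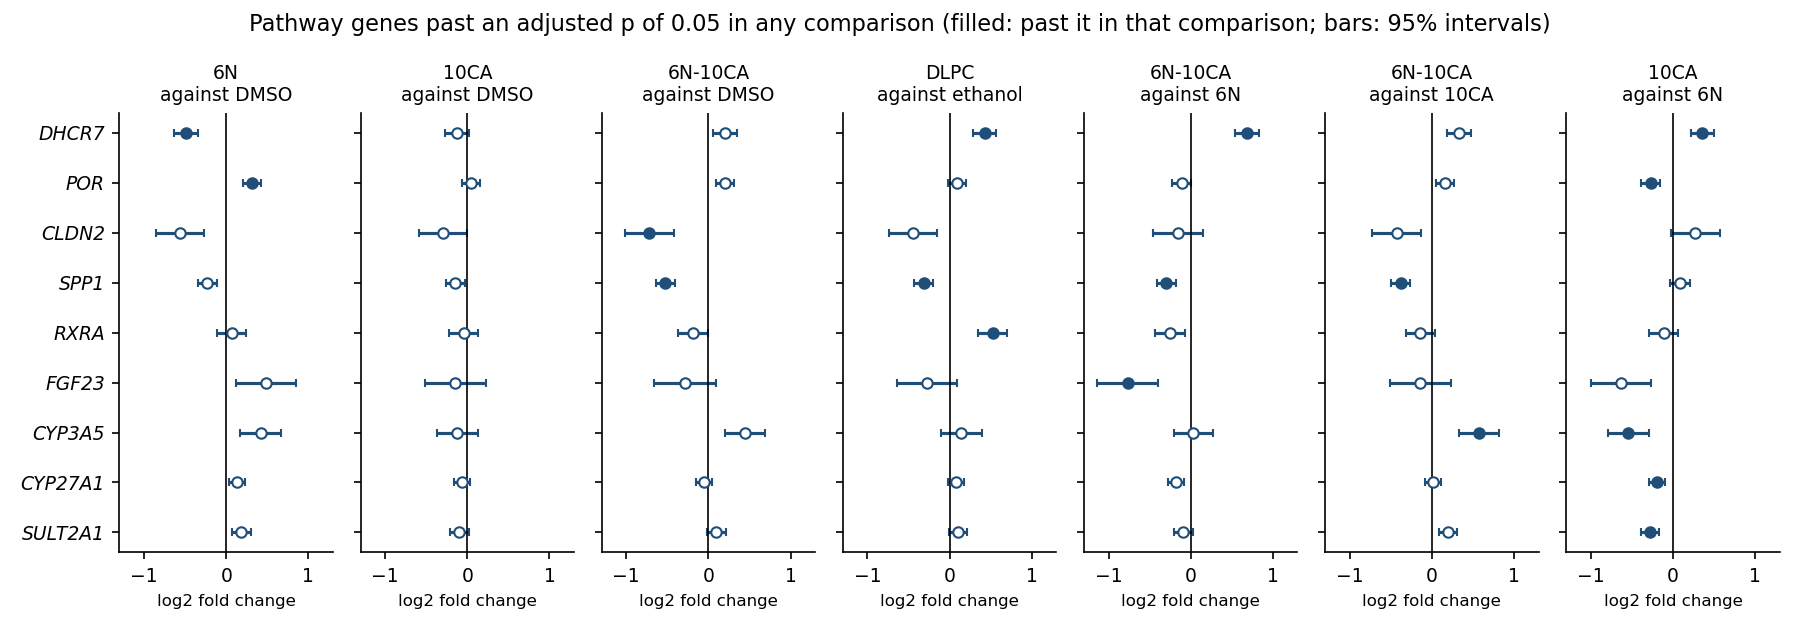
Log2 fold changes with 95% intervals of the 9 listed pathway genes called in any comparison, in 7 comparisons; filled points have an adjusted p under 0.05. DHCR7 stands at -0.49 with 6N and 0.43 with DLPC, RXRA is filled for DLPC against ethanol alone, and no point is filled for 10CA against DMSO.

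Likeness to each hydroxylase was measured as Pearson's r of log2 CPM over the 18 libraries, among the 12610 or 12611 genes whose mean reached 1 CPM, as a description of libraries that share their groups and replicate numbers. The genes most like CYP24A1 were HOXA4 (0.83), LACTBL1 (0.75), INPP5D (0.75), CYB5A (0.74) and ECE1 (0.74). HOXA4 averaged 6.31 ± 0.71 CPM with 6N, 5.10 ± 0.60 with 10CA and 5.56 ± 0.13 with 6N-10CA, against 4.92 ± 0.42 CPM with DMSO, a narrower span than that of CYP24A1. Those most like CYP2R1 were ZNF74 (0.79), TTC30B (0.79), FRG1 (0.77), ABCD4 (0.76) and FAM86JP (0.75). Those most like CYP27B1 were LA16c-431H6.6 (0.70), KATNAL1 (0.69), ZNF814 (0.63), TET2 (0.63) and HIST4H4 (0.63). Among themselves the hydroxylases and VDR had r of -0.38 to 0.26. With counts this low a weak correlation is no finding. The listed genes have the highest of 12610 or 12611 correlations, and how high the highest would be by chance was not tested. Those of CYP24A1 also rest on the 6N and DMSO libraries that took part in its choice.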

How the data were processed

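The deposited table holds raw, whole-number counts for 18 libraries, with genes named by symbol. Per the labels' protocols, the Nextera XT kit was used on amplified cDNA, with single-end sequencing. The submitters' processing notes name GRCh38 and DESeq2. Not given in the sources used here were the aligner, counter, annotation, strandedness and treatment time. Overlapping or antisense genes can therefore share reads, and counts of a gene are reads, not molecules.

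All libraries entered 1 fit with a mean per group, TMM scaling and edgeR's quasi-likelihood test (edgeR 4.0.16, R 4.3.3), two-sided, with Benjamini-Hochberg adjustment over the 14797 genes kept by filterByExpr (minimum count 10) and a threshold of 0.05. SE and 95% intervals come from that fit. CPM values use TMM-scaled library totals. The biological coefficient of variation was 6.96%. DESeq2 1.42.0 was an alternative, and the closing section gives the effect of the others.

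The labels do not say whether replicates are separate cultures, so p-values reflect only how far these libraries differ, possibly for technical reasons. Replicates of a group differed by more than sampling noise (chi-square of 4.48 to 13.7 per gene). Deviations of same-numbered libraries correlated at 0.15 to 0.59 in 7 of the 8 comparisons and at 0.087 to 0.23 for 6N against DMSO. The numbers were taken to pair the libraries in those 7, from the data and not the labels. The main fit, its p-values and its intervals leave this pairing out, and the closing section gives the calls with it as a block.

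Tests of CYP24A1 against DMSO, planned at first, were left out because the choice of the gene used those libraries. The 4 genes, the pathway lists and the tests were chosen with earlier results of these data known. Named pathway genes are those called in any comparison plus VDR, RXRA, CYP27A1, CYP3A4, LRP2, CUBN, FDX1, FDXR and POR; others were named after their values were seen. The most alike genes are the 5 with the highest correlation. Gene positions and exon lengths come from GENCODE release 29.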

Additional observations from a re-analysis of the deposited data

How the results depend on the processing

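Of the 16 tests of the hydroxylases, none passed the threshold in any of the 80 adjusted p-values from alternatives or without any 1 library, with a smallest value of 0.279; DESeq2 gave none for 11 of the 16, and CYP2R1 with DLPC did not pass the filter with only 2 groups. For CYP24A1 the other vehicle gave 1.14 for 6N, 0.01 for 10CA, 0.22 for 6N-10CA and 1.31 for DLPC, and both vehicles averaged gave 1.56 for 6N, 0.42 for 10CA and 0.63 for 6N-10CA. Counts of called pathway genes moved more. With no filter on low counts they were 5 for DLPC against ethanol, 4 for 6N-10CA against DMSO, 5 for 6N-10CA against 6N and 1 for ethanol against DMSO. With the replicate block they were 9 for 6N against DMSO, 6 for 6N-10CA against DMSO, 7 with DLPC against ethanol, 7 for 6N-10CA against 6N, 6 for 6N-10CA against 10CA and 11 for 10CA against 6N; the block changed no call of a hydroxylase. Calls over all genes moved likewise: with the block 3.72%, 3.8%, 6.74%, 8.32%, 2.36% and 7.66% of tested genes were called in these 6 comparisons, and FDXR (0.22, adjusted p = 0.00109) was among the 9. With DESeq2 they were 5 for 6N against DMSO, 5 for 6N-10CA against DMSO, 5 for 6N-10CA against 6N and 8 for 10CA against 6N, of 251, 174, 501 and 484 genes called in all. With only the 2 groups in the fit they were 1 for 6N-10CA against DMSO, 0 for 6N-10CA against 10CA and 2 for 10CA against 6N. With the other vehicle they were 5 for 6N and 5 for DLPC, and with both vehicles averaged 6 for 6N, 4 for 6N-10CA and 7 for DLPC. Leaving out 1 library at a time gave 2 to 5 for 10CA against 6N, 1 throughout for 6N-10CA against 10CA and 1 throughout for 6N-10CA against DMSO. The cause was not tested. GC could not be fitted under the filter, and its mean of 0.208 CPM with 6N-10CA ranged from 0.157 to 0.295 as libraries were left out. Low counts limit what these libraries show of CYP2R1 and GC.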
